A study of Mus musculus with 12 samples.

Results

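The genes described here drive DNA replication and mitosis. They are 42 genes found by symbol in a table of 54532 genes measured in 12 RNA-seq libraries of cultured mouse astrocytes. All 42 were found, and 41 passed the filter for testing, which asked for at least 1 FPKM in at least 2 libraries. FPKM is a fragment count scaled by gene length and library size, but not by GC content. Levels of different genes can thus be set side by side only roughly. Cenpf, a kinetochore protein, did not pass the filter, with 0.0848 to 1.08 FPKM, and its values are given without a test. The genes were grouped by role into 11 cyclins, kinases and transcription factors, 11 genes of origin licensing and the replication fork, 4 of nucleotide supply, 2 of chromatin maintenance, 4 of the spindle checkpoint and anaphase promotion, and 10 of the kinetochore, spindle and chromosome structure.

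Astrocytes of cortex and hippocampus were cultured from adult C57BL/6 mice after tissue digestion with trypsin and papain, with no sorting described, and each of 6 groups held 2 libraries. The Ogt cKO group (conditional knockout of Ogt, the enzyme that adds O-GlcNAc to proteins) and its control came from mice 4 months old. Both carry the same genotype label, Glast-CreERT2::Ogtfloxp/Y, in which the Glast promoter of astrocytes and some neural stem cells drives a tamoxifen-inducible Cre. No tamoxifen is mentioned in the labels, and only the sample descriptions separate the cKO from its control. The AD group came from a 5X APP Alzheimer's mouse model, and its control from wild type mice, all 6 months old by the sample labels and 5 months by the series text. The Aβ group was wild type astrocytes of mice 2 months old given 20 µM Aβ 1-42, the peptide of amyloid plaques, for 72 hours (73 in the label of 1 library), and its control was left untreated. Whether the 2 libraries of a group stem from different mice or cultures is not stated, so p-values measure the spread between these libraries, which may be technical.

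As background, a cell that divides first licenses its replication origins by loading the MCM helicase, then fires them in S phase while ribonucleotide reductase supplies deoxynucleotides. Genes for these steps are switched on by E2F factors once cyclin D and cyclin E kinases inactivate the retinoblastoma protein. Genes for mitosis peak later and are held down in quiescent cells by the DREAM complex, which sits at short CHR promoter elements, and are switched on by B-MYB and FOXM1, often beside CCAAT boxes bound by NF-Y. Most astrocytes of the healthy adult brain do not divide, while astrocytes in culture can, as can microglia, endothelial cells, pericytes and fibroblasts. A level in a bulk library does not tell a larger share of cycling cells from more RNA in each cycling cell, and these cannot be told apart here.

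The promoters of Mcm6, Cdk1, Cdc20 and Top2a are shown because these genes stand for the S phase and mitosis programmes whose levels are described here. Each is 300 bases around the annotated start (250 before it and 50 after), on the strand of the gene, from RefSeq on GRCm38.p6. Capitals mark 3 searched patterns on either strand: TTTNNCGC with each N either C or G (the E2F pattern), TTTGAA (the CHR) and CCAAT.
Mcm6, helicase subunit, chr1:128359656-128359955, minus strand: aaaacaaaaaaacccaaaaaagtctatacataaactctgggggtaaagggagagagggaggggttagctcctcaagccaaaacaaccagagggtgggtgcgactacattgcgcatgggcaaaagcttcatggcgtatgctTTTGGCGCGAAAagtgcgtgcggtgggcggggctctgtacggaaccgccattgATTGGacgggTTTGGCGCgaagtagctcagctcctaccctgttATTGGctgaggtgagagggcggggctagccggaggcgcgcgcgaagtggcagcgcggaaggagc
Cdk1, the mitotic kinase, chr10:69352863-69353162, minus strand: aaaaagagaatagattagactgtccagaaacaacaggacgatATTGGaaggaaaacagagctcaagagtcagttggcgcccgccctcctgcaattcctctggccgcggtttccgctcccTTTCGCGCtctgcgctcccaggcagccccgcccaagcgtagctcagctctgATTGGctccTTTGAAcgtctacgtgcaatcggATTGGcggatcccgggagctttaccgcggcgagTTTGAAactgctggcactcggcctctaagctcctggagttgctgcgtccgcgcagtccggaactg
Cdc20, activator of the anaphase-promoting complex, chr4:118437294-118437593, minus strand: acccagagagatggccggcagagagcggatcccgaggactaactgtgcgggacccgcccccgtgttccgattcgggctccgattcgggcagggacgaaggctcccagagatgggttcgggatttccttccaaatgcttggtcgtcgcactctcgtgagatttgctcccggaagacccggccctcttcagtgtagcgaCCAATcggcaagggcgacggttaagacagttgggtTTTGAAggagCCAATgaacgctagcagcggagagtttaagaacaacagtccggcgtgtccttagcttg
Top2a, DNA topoisomerase of dividing cells, chr11:99024140-99024439, minus strand: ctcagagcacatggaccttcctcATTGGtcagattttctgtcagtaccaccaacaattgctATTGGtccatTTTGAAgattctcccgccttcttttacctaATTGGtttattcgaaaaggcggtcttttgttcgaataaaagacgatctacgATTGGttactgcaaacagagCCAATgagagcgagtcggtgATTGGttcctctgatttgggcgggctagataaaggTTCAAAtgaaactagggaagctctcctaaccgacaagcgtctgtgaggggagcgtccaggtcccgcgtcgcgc

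In the Mcm6 window the E2F pattern matched at bases 141, 145 and 204, the first pair overlapping on opposite strands, and the CHR letters were not found. The Cdk1 window held an E2F match at base 120, CHR matches at bases 180 and 236, and 3 CCAAT matches. In the Cdc20 window a CHR at base 233 lay close to a CCAAT match, and in the Top2a window there were 2 CHR matches and 6 CCAAT matches. Windows were given for 34 of the 42 genes. Among these, 23.5% held the E2F pattern, against 2.26% of all 32851 windows, and 6 of the 8 were among the 9 origin and fork genes with a window. The CHR letters were in 41.2% of the genes' windows and 17.9% of all windows, and CCAAT in 73.5% and 37.4%. Every one of the 14 windows with a CHR also had CCAAT, and windows with both made up 6.95% of all windows. A match is a description of the letters, not a bound site.

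The 12 libraries held 16418852 to 18705309 reads, as recovered from the FPKM and gene lengths, and 3 reads on a gene of 1 kilobase came to 0.145 to 0.191 FPKM. A tested gene of the list had between 6 reads (Cenpe in replicate 2 of the cKO control) and 3725 reads (Rrm1) in a library. Ogt, the targeted gene, had 11.04 and 12.03 FPKM in the Ogt cKO, against 20.8 and 24.7 in its control, and fitted 0.92 ± 0.30 lower on the log2 scale (SE, adjusted p = 0.0378, limma). It was also low in the wild type Aβ control, at 7.85 and 10.4 FPKM, so the level of Ogt does not tell the cKO libraries from wild type ones. Across all genes the Ogt cKO and Aβ control libraries, of different genotype and age, lay close together: 45 of 14014 genes, or 0.321%, differed at an adjusted p under 0.05 (limma), and 1045 at an unadjusted p under 0.05. Whether these libraries carry the right labels was not tested, and each comparison with a cKO or Aβ control library rests on the labels as given. The labelled cell type was not the only one with markers present. Gfap, the astrocyte filament protein, ranged from 29.1 to 298 FPKM over the 12 libraries, Lyz2, of microglia and macrophages, from 522 to 5762, and Acta2, of smooth muscle and pericytes, from 171 to 3600. Of 10 neuronal and neuroblast markers, Snap25 was at most 0.0375 FPKM and listed at 0 in 6 libraries and Dcx was listed at 0 in 8, while Tubb3 had 40.6 to 177 FPKM, Stmn2 1.06 to 19.3 and Sox11 0.612 to 4.54. Gjb6, an astrocyte gap junction gene, was listed at 0 in 7.

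**Figure D1:**
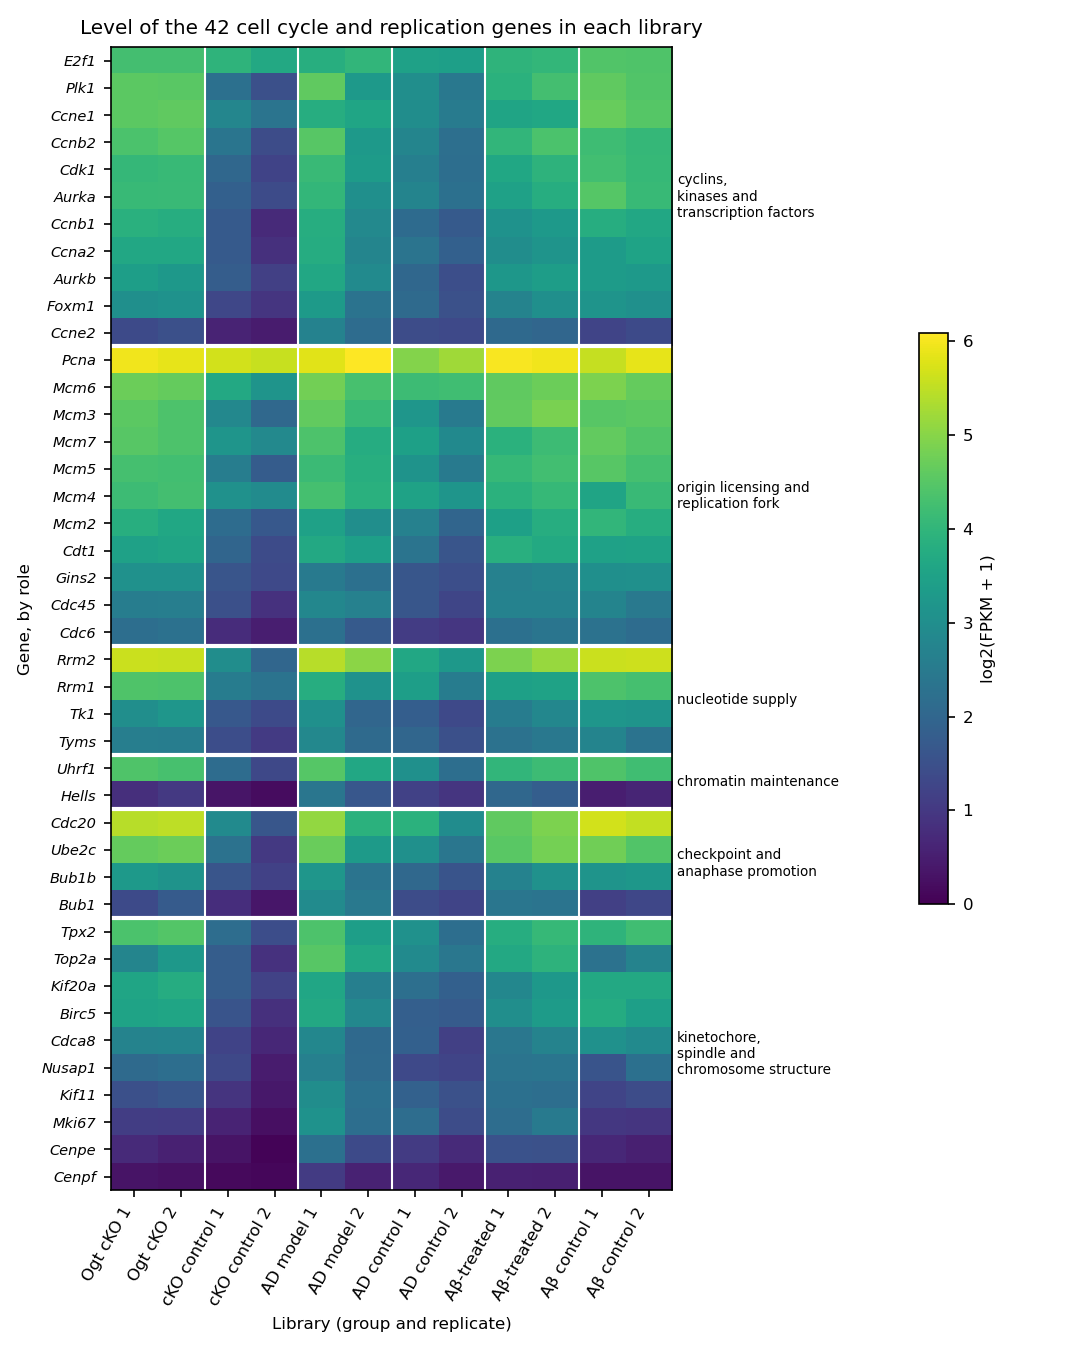
Heat map of log2(FPKM + 1) for the 42 genes (rows, by role, highest mean first) in each of the 12 libraries (columns, named by group and replicate). Both cKO control libraries and replicate 2 of the AD control are dark in most rows, both cKO and both Aβ control libraries are bright, and Pcna is bright throughout.

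The level of the whole group separated the libraries into high and low. The 42 genes summed to 602 FPKM in each Ogt cKO library, against 190 and 128 FPKM in the cKO control. In the AD model they summed to 615 and 396 FPKM, against 249 and 182 FPKM in the AD control. Aβ-treated cells had 477 and 544 FPKM, against 604 and 579 FPKM in the Aβ control. The order of group means was thus Ogt cKO (602), Aβ control (591), Aβ-treated (511), AD model (505), AD control (216) and cKO control (159). The libraries of neighbouring groups in that order overlapped for Ogt cKO and Aβ control, for Aβ-treated and AD model, and for AD control and cKO control. They did not overlap between Aβ control and Aβ-treated or between AD model and AD control.

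Replicates differed most in 3 groups. In the cKO control all 42 genes were higher in replicate 1 than in replicate 2, with a median ratio of 1.98. In the AD model 40 of 42 were higher in replicate 1 (median ratio 1.84), and in the AD control 40 of 42 as well (1.55). In the Ogt cKO 17 genes were higher in replicate 1 and 25 in replicate 2, with a median ratio of 0.984. The genes thus deviated together within a group, and a count of genes is not a count of independent results. The same counts were not made over all genes. Whether these shifts between replicates are particular to the 42 genes was not tested.

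In the Ogt cKO nearly the whole cell cycle programme was higher than in its control. Of the 41 genes tested, 37 rose and 0 fell (limma on log2(FPKM + 1), adjusted p under 0.05 over all 14014 genes). Of all genes tested 22.6% were higher and 19.8% lower in this comparison. The median fitted change was 1.82 on the log2 scale, with a range of 0.30 to 3.19, while the median of all genes was near 0. All 41 genes had both cKO libraries above both control libraries. The share of all genes separated in this way was not counted, in this or the other comparisons. The added 1 makes a fitted change smaller than the ratio of means where levels are low.

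Among cyclins, kinases and transcription factors all 11 rose. Plk1, the polo-like kinase that drives entry into mitosis, had 22.5 and 22.3 FPKM in cKO libraries, against 3.72 and 1.79 in control libraries, a fitted change of 2.69 ± 0.41 (SE, adjusted p = 0.00241, limma). Cdk1, the kinase partner of cyclin B, had 15.7 and 16.2 FPKM in the cKO, against 3.12 and 1.35 in its control (2.45 ± 0.31, adjusted p = 0.0014, limma). Ccne1 encodes cyclin E1 of the G1 to S step. It had 22.4 and 23.3 FPKM in cKO libraries, against 5.94 and 4.06 in control libraries (2.01 ± 0.19, adjusted p = 0.0006, limma). The smallest change of the 11 was that of E2f1, an activating E2F, with 18.4 and 18.4 FPKM in the cKO, against 14.6 and 11.8 in its control (0.46 ± 0.13, adjusted p = 0.0192, limma). The call of E2f1 was lost when the values were rescaled to total reads (0.23) or quantile normalized (0.34), and without cKO replicate 1 (0.46), cKO replicate 2 (0.46) or control replicate 2 (0.32).

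Of the 11 genes of origin licensing and the fork, 10 rose, by 1.21 to 2.09 on the log2 scale. Mcm6 had 25.5 and 24.3 FPKM in cKO libraries, against 11.8 and 7.90 in control libraries (1.28 ± 0.20, adjusted p = 0.00298, limma). Gins2, a subunit of the GINS complex that activates the helicase, averaged 7.45 ± 0.0272 FPKM in the cKO and 1.79 ± 0.368 FPKM in the control (SD, n = 2 each; 1.61 ± 0.14 on the log2 scale). Pcna, the sliding clamp of DNA polymerases, was the gene of the 41 with the smallest fitted change. It had 61.2 and 57.6 FPKM in cKO libraries, against 49.7 and 46.5 in control libraries, a fitted 0.30 ± 0.15 that did not pass the test (adjusted p = 0.138, limma) and that was −0.01 when quantile normalized. Pcna is also used in DNA repair and is made outside S phase, and it was the most abundant of the 42 genes.

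All 4 genes of nucleotide supply rose. Rrm2, the small subunit of ribonucleotide reductase that is made in S phase, had 47.8 and 46.7 FPKM in the cKO, against 6.89 and 3.04 in its control (3.09 ± 0.29, adjusted p = 0.000545, limma). Rrm1, the large subunit, had 20.4 and 20.0 FPKM in cKO libraries, against 4.92 and 3.98 in control libraries (1.97 ± 0.29). The 2 chromatin genes differed in level. Uhrf1, which brings the maintenance DNA methyltransferase to new DNA, had 20.2 and 18.8 FPKM in the cKO, against 3.46 and 1.48 in its control (2.62 ± 0.37, adjusted p = 0.00193, limma). Hells, a chromatin remodeller also needed for DNA methylation, had 0.776 and 1.01 FPKM in the cKO, against 0.273 and 0.155 in its control (0.64 ± 0.23, adjusted p = 0.0513, limma), and did not pass, though it did by voom (2.11), with the GC and length trend removed (0.97) and with only the 4 libraries fitted (0.64).

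Genes of mitotic exit were among those that rose most. Cdc20 had 42.2 and 44.0 FPKM in cKO libraries, against 6.51 and 2.10 in control libraries, the largest fitted change of the 41 genes (3.19 ± 0.49, adjusted p = 0.0025, limma) and a ratio of means of 10.0. Ube2c, the E2 enzyme of the anaphase-promoting complex, had 24.1 and 25.5 FPKM in the cKO, against 3.92 and 1.01 in its control (3.04 ± 0.49, adjusted p = 0.00315, limma). All 4 genes of the checkpoint and anaphase promotion rose, and 7 of the 9 tested kinetochore, spindle and chromosome genes. Tpx2, a spindle assembly factor that activates Aurora A, had 19.6 and 20.95 FPKM in the cKO, against 3.55 and 1.72 in its control (2.60 ± 0.38, adjusted p = 0.00221, limma). Top2a had 5.82 and 8.45 FPKM in cKO libraries, against 2.48 and 0.823 in control libraries (1.67 ± 0.37, adjusted p = 0.0091, limma), and its call was lost without cKO replicate 2 (1.44) or control replicate 2 (1.21). Mki67, the Ki-67 antigen used to stain dividing cells, had 1.14 and 1.12 FPKM in the cKO, against 0.533 and 0.188 in its control, and did not pass (0.66 ± 0.32, adjusted p = 0.126, limma), though it did with 0.1 in place of the added 1 (1.53) or with only the 4 libraries fitted. Cenpe, a kinetochore motor, did not pass either, with 0.642 and 0.485 against 0.240 and 0.0337 FPKM in the control. Cenpf, not tested, had 0.243 and 0.206 FPKM in the cKO, against 0.113 and 0.0848 in its control.

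**Figure D2:**
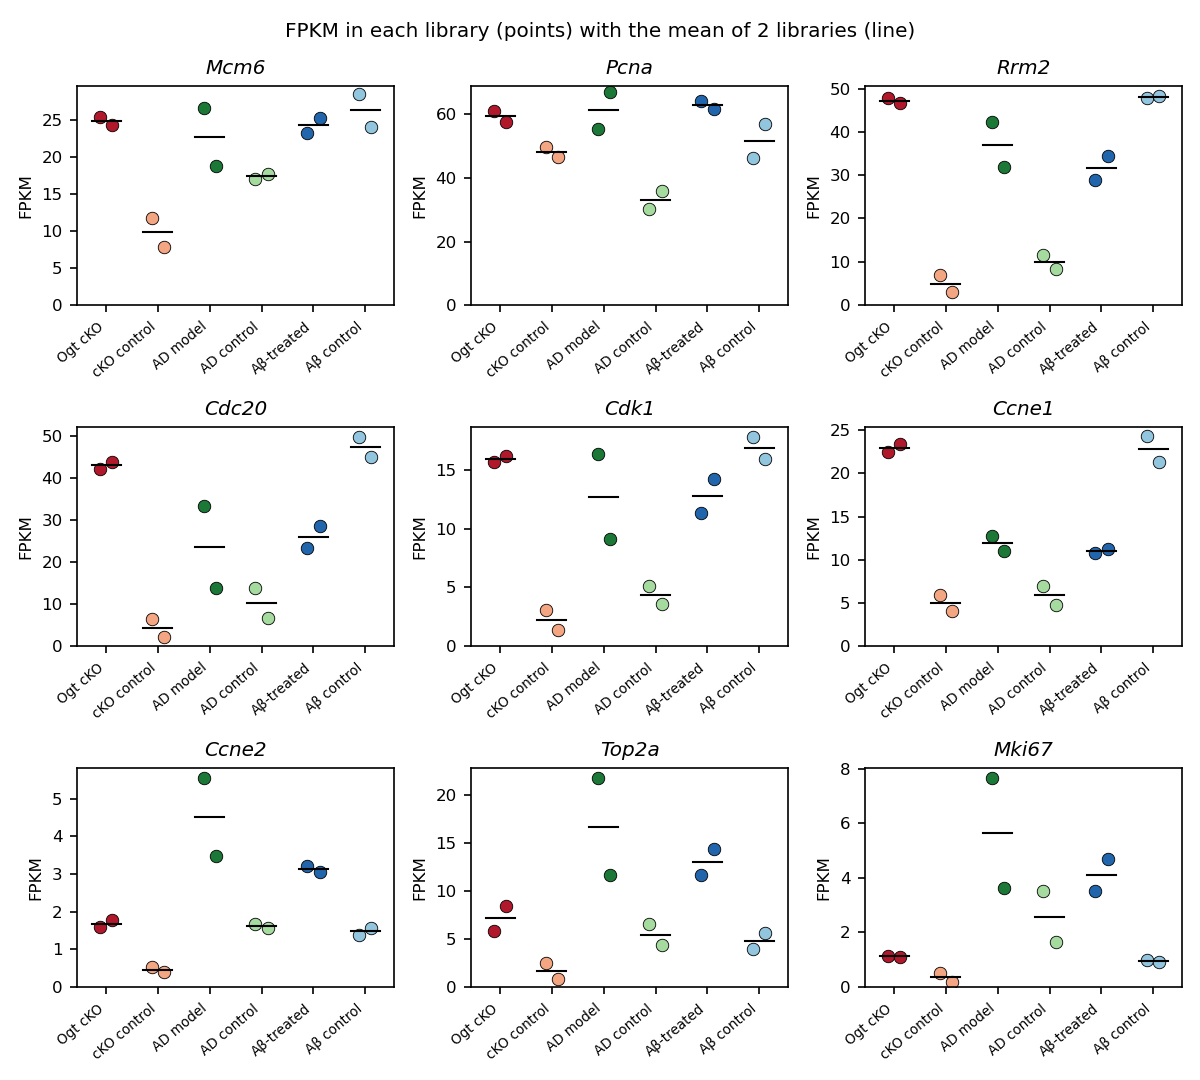
FPKM of 9 genes in each library, with a line at the mean of 2 libraries and each y axis starting at 0. For Mcm6, Rrm2, Cdc20, Cdk1 and Ccne1 the Ogt cKO and Aβ control points lie close together, both cKO points of Cdc20 (42.2 and 44.0) below those of the Aβ control (49.8 and 45.0), while Top2a, Mki67 and Ccne2 are highest in replicate 1 of the AD model.

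The count in the cKO was between 30 and 37 when each library was left out in turn, and 41 of 41 when only the 4 libraries of the comparison were fitted. When values were rescaled to the recovered reads the median of all genes moved to −0.19 and the share of all calls that were higher to 35.3%, against 53.3% as deposited, while 36 of the 41 genes were still called, all higher. Other cell type markers moved in the same comparison. Their sums follow the most abundant genes. Lyz2 had 3420 of the 4193 FPKM of microglia and macrophage markers in cKO replicate 1. Acta2 reached 3600 FPKM over the 12 libraries, and no other pericyte and smooth muscle marker passed 342. Pericyte and smooth muscle markers rose in 5 of 9 tested and summed to 4033 and 4082 FPKM in cKO libraries, against 1016 and 508 in control libraries. Endothelial markers rose in 8 of 10 and fell in 1, with sums of 279 and 271 FPKM against 61.4 and 52.1. Astrocyte markers fell in 10 of 13, with sums of 186 and 200 FPKM in the cKO, against 769 and 927 in its control. Microglia and macrophage markers fell in 7 of 14 (4193 and 3147 FPKM against 9419 and 7445 in the control), and oligodendrocyte lineage markers fell in 7 of 11. Of fibroblast markers 1 rose and 1 fell of 10, of neural stem cell markers 1 rose and 3 fell of 8, and of neuronal markers 2 rose of 4. The part of these cells in the result was not tested.

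In the AD model 26 of the 41 genes rose and 0 fell, with a median fitted change of 1.05 and a range of 0.35 to 1.79. The median was 0.67 without AD replicate 1 and 1.38 without AD replicate 2. Of all genes tested 9.8% were higher and 7.27% lower. In 39 of the 41 genes both AD libraries lay above both control libraries, a count with no share of all genes to set it against. The 26 shared 23 genes with the 37 of the Ogt cKO, which is 88.5% of the AD genes and 62.2% of the cKO genes, and these comparisons have no library in common. Of all 41 genes 90.2% were called in the cKO, so the share of 88.5% is near that background. The other 3 were Pcna, Hells and Cenpe. For Hells the missing call in the cKO depended on the added 1: it was called there with 0.5 (0.97) or 0.1 (1.68) added, and its ratio of means was 4.19 in the cKO and 2.92 in the AD model.

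Of the 11 origin and fork genes 9 rose, of which Cdt1, the licensing factor, fitted the largest change, with a mean of 10.8 ± 1.42 FPKM in the AD model and 3.06 ± 1.42 FPKM in its control (SD, n = 2 each; 1.58 ± 0.25 on the log2 scale, adjusted p = 0.0032, limma). Pcna had 55.5 and 67.1 FPKM in AD libraries, against 30.3 and 36.0 in control libraries (0.87 ± 0.15, adjusted p = 0.00499, limma). Mcm6 showed the smallest fitted change of the 41, with 26.7 and 18.9 FPKM in the AD model, against 17.0 and 17.8 in its control (0.35 ± 0.20, adjusted p = 0.304, limma), and did not pass. Rrm2 showed the largest change of the 41 and was 1 of 4 nucleotide supply genes to pass. It had 42.3 and 31.8 FPKM in AD libraries, against 11.5 and 8.43 in control libraries (1.79 ± 0.29, adjusted p = 0.00342, limma). Its partner Rrm1 had 12.9 and 7.55 FPKM in the AD model, against 9.72 and 4.89 in its control, and the groups overlapped (0.46 ± 0.29, adjusted p = 0.341, limma). Both chromatin genes rose. Hells had 4.26 and 2.14 FPKM in AD libraries, against 1.28 and 0.911 in control libraries (0.96 ± 0.23), and Uhrf1 had 21.5 and 11.6 FPKM against 7.34 and 3.59 in the control (1.44 ± 0.37).

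Of the cyclins, kinases and factors 7 of 11 rose. Ccne1 had 12.8 and 11.02 FPKM in the AD model, against 6.98 and 4.80 in its control (0.92 ± 0.19, adjusted p = 0.0115, limma), and Ccne2, the second cyclin E, had 5.55 and 3.47 FPKM, against 1.68 and 1.56 in the control (1.05 ± 0.18, adjusted p = 0.00426, limma). E2f1 had 13.2 and 15.2 FPKM in AD libraries, against 10.3 and 9.76 in control libraries (0.46 ± 0.13, adjusted p = 0.035, limma). Plk1 had 23.4 and 8.87 FPKM in the AD model, against 7.05 and 4.40 in its control, and did not pass (1.24 ± 0.41, adjusted p = 0.0706, limma). Here the gap between the AD replicates was wider than that between AD replicate 2 and the control. Of the checkpoint and anaphase genes Bub1, the checkpoint kinase, rose, with 6.65 and 4.47 FPKM in AD libraries, against 1.65 and 1.37 in control libraries (1.37 ± 0.21, adjusted p = 0.00305, limma). Cdc20 had 33.4 and 13.9 FPKM in the AD model, against 13.9 and 6.76 in its control, and the groups overlapped (1.07 ± 0.49, adjusted p = 0.181, limma). Ube2c had 24.8 and 8.94 FPKM, against 7.27 and 4.29 in the control (1.28 ± 0.49, adjusted p = 0.118, limma). Of 9 kinetochore, spindle and chromosome genes 6 rose, among them Top2a with 21.7 and 11.6 FPKM in AD libraries, against 6.56 and 4.33 in control libraries (1.42 ± 0.37, adjusted p = 0.0312, limma). Mki67 had 7.65 and 3.61 FPKM against 3.50 and 1.66 in the control (0.87 ± 0.32, adjusted p = 0.106, limma), and Tpx2 had 20.0 and 9.64 FPKM against 7.43 and 3.59 (1.26 ± 0.38, adjusted p = 0.0523, limma). Tpx2, not called here, was called with a filter at 5 FPKM (1.26), when rescaled to total reads (1.30) and by voom (1.45).

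In the 12-library fit 38 of the 41 genes had an unadjusted p under 0.05 (limma), as did 4135 of all 14014 genes tested. With only the 4 AD and AD control libraries fitted, 0 of the 41 genes passed, and the count over all genes is not given. The AD count thus rested on the spread shared by all 12 libraries. It was 11 without AD control replicate 2, 13 without AD replicate 1, 26 without AD control replicate 1, 37 without AD replicate 2, and 13 with no filter on low values, each time with 0 lower. Without AD control replicate 2 the calls of Ccne1 (0.69), E2f1 (0.43), Hells (0.83), Top2a (1.16) and Uhrf1 (1.01) were among those lost, without AD replicate 1 those of Hells (0.59), Top2a (0.99) and Uhrf1 (1.03), and E2f1 was also lost without AD replicate 2 (0.37) or AD control replicate 1 (0.50). Plk1, Tpx2, Ube2c and Mki67 were called without AD replicate 2, at 1.75 to 1.96 for the first 3 and 1.32 for Mki67, and Tpx2 (1.70) and Mki67 (1.25) also without AD control replicate 1. Marker levels moved beside it. Microglia and macrophage markers rose in 9 of 14 and summed to 3711 and 6131 FPKM in AD libraries, against 1208 and 1716 in control libraries, while pericyte and smooth muscle markers fell in 6 of 9 (767 and 214 FPKM in the AD model, against 3852 and 1725 in its control). Astrocyte markers fell in 4 of 13, fibroblast markers in 4 of 10 and neural stem cell markers in 1 of 8, oligodendrocyte lineage markers rose in 6 and fell in 3 of 11, and no endothelial or neuronal marker passed. Their part in the result was not tested.

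**Figure D3:**
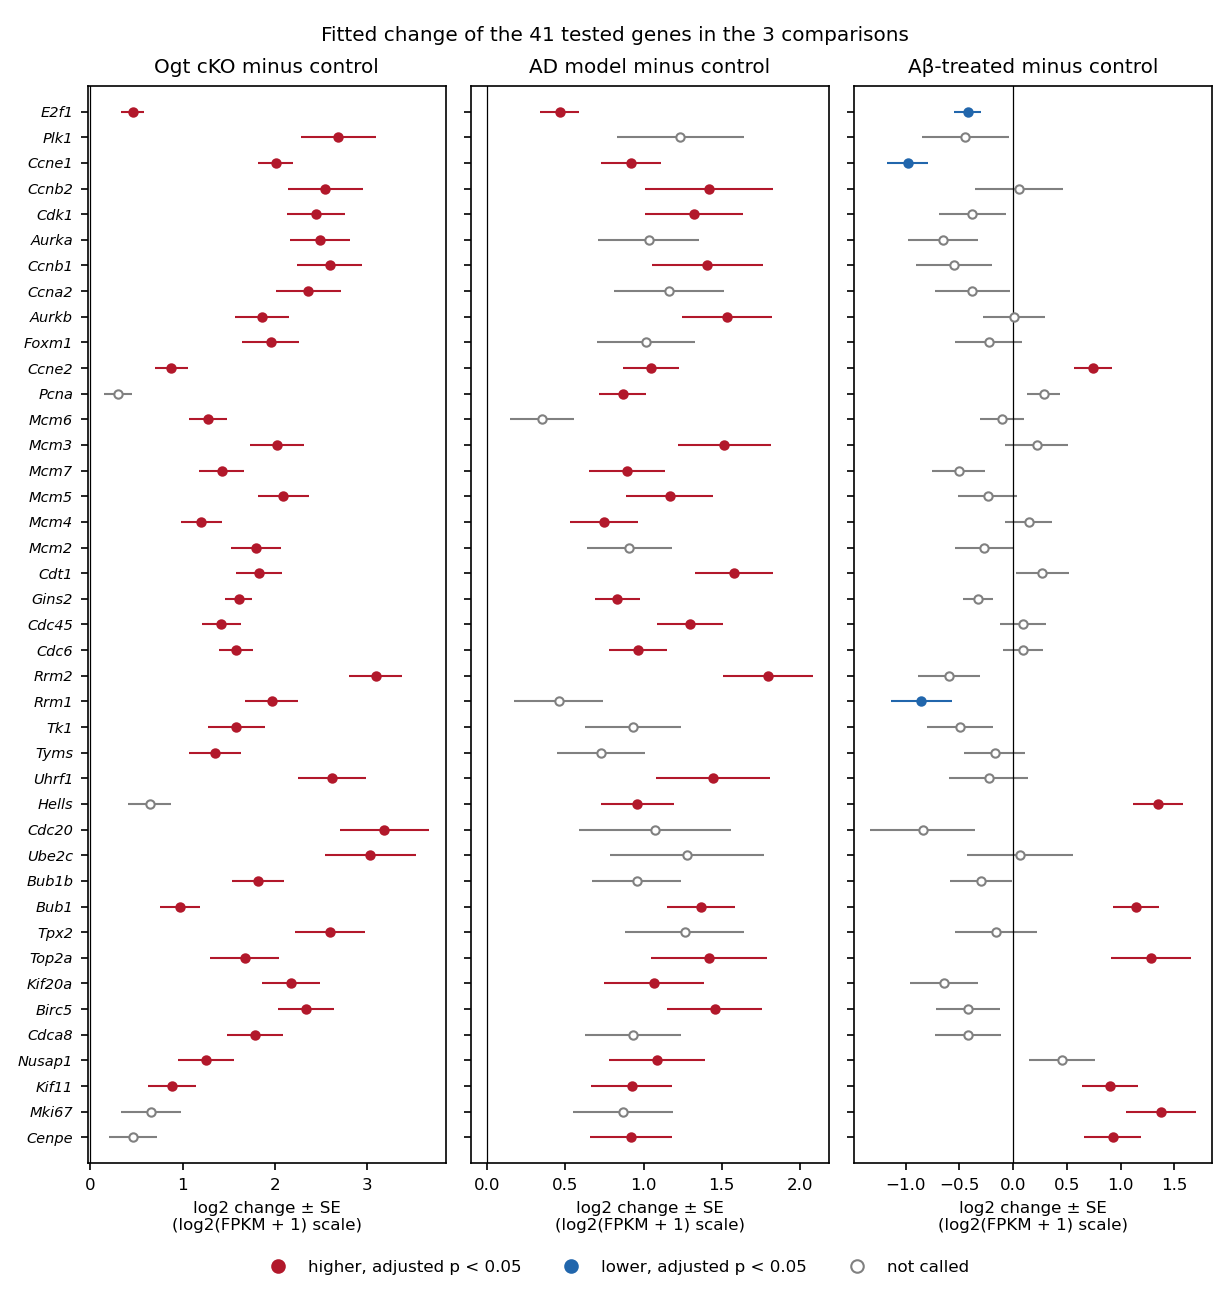
Fitted log2 change with its standard error for the 41 tested genes in the 3 comparisons, with filled points for an adjusted p under 0.05 and open points for the rest. The x axes differ between panels. Changes run from 0.30 to 3.19 for the Ogt cKO, from 0.35 to 1.79 for the AD model and from −0.98 to 1.38 for Aβ.

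Aβ-treated cells showed changes in both directions. Of the 41 genes 7 rose (Mki67, Hells, Top2a, Bub1, Cenpe, Kif11 and Ccne2) and 3 fell (Ccne1, Rrm1 and E2f1), with a median of −0.23 on the log2 scale (−0.10 without treated replicate 1, −0.14 without control replicate 1 and −0.31 without treated replicate 2). That is 10 of 41, in a comparison where 35.9% of all genes were called, 20.8% higher and 15.1% lower, so the share is below that background. In 11 genes both treated libraries lay above both control libraries, and in 20 below, again with no share of all genes counted.

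Mki67 rose most. It had 3.51 and 4.67 FPKM in treated libraries, against 0.993 and 0.904 in control libraries (1.38 ± 0.32, adjusted p = 0.0104, limma), a ratio of means of 4.31. Hells had 3.08 and 2.53 FPKM in treated cells, against 0.435 and 0.543 in the control (1.35 ± 0.23, adjusted p = 0.00244, limma). Top2a had 11.7 and 14.3 FPKM in treated libraries, against 3.94 and 5.61 in control libraries (1.28 ± 0.37, adjusted p = 0.026, limma). For these genes the treated libraries were 2.72 to 5.73 times the control by their means. Bub1 averaged 4.15 ± 0.0903 FPKM in treated and 1.34 ± 0.183 FPKM in control libraries (SD, n = 2 each), Kif11, the spindle motor of bipolar spindles, 3.69 ± 0.13 and 1.52 ± 0.202 FPKM, and Cenpe 1.88 ± 0.0185 and 0.515 ± 0.106 FPKM. Cenpf, not tested, was at 0.478 and 0.453 FPKM in treated cells, against 0.241 and 0.246 in the control.

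The cyclin E genes moved in opposite directions. Ccne1 had 10.8 and 11.3 FPKM in treated libraries, against 24.4 and 21.3 in control libraries, the largest fall of the 41 (−0.98 ± 0.19, adjusted p = 0.00462, limma). Ccne2 had 3.21 and 3.06 FPKM in treated cells, against 1.39 and 1.56 in the control (0.74 ± 0.18, adjusted p = 0.0115, limma). Rrm1 had 10.1 and 10.3 FPKM in treated libraries, against 20.0 and 18.5 in control libraries (−0.85 ± 0.29, adjusted p = 0.045, limma). E2f1 had 14.6 and 15.3 FPKM in treated cells, against 20.6 and 20.2 in the control (−0.42 ± 0.13, adjusted p = 0.0283, limma). In all of these the replicates of a group lay much closer to each other than the groups did.

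None of the 11 origin and fork genes passed in either direction, though Gins2 was called as lower when quantile normalized (−0.47). Mcm6 had 23.3 and 25.3 FPKM in treated libraries, against 28.6 and 24.1 in control libraries, and the groups overlapped. Pcna had 64.1 and 61.6 FPKM in treated cells, against 46.2 and 57.1 in the control (0.28 ± 0.15, adjusted p = 0.169, limma). Rrm2 had 28.8 and 34.5 FPKM in treated libraries, against 47.9 and 48.3 in control libraries (−0.59 ± 0.29, adjusted p = 0.134, limma), and Cdc20 had 23.5 and 28.7 FPKM, against 49.8 and 45.0 in the control (−0.84 ± 0.49, adjusted p = 0.202, limma). Neither passed although treated and control libraries did not overlap. Both were called as lower with only the 4 libraries of the comparison fitted. Plk1 had 13.8 and 18.2 FPKM in treated cells, against 23.2 and 20.7 in the control (−0.44 ± 0.41), Uhrf1 had 15.1 and 17.1 FPKM against 20.3 and 17.8 (−0.23 ± 0.37), Tpx2 had 12.8 and 15.8 FPKM against 14.6 and 17.5, and Ube2c had 22.1 and 27.0 FPKM against 26.4 and 20.8.

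The Aβ count depended on the settings. It was 17 (7 higher, 10 lower) with only the 4 libraries of the comparison, 6 (4 higher, 2 lower) with no filter on low values, 4 (1 higher, 3 lower) with a filter at 5 FPKM, and 3 to 6, each with 1 lower, when a library was left out (4 without treated replicate 1 or 2, 3 without control replicate 1 and 6 without control replicate 2). E2f1 and Rrm1 were lost without any 1 of the 4 libraries, at −0.45 to −0.39 and −0.91 to −0.80. Mki67 was lost without treated replicate 2 (1.21) or control replicate 1 (1.41), and Top2a without treated replicate 1 (1.42) or 2 (1.15) or control replicate 1 (1.07). Rrm1 was also lost with 0.1 in place of the added 1 (−0.91), with no filter (−0.85), when quantile normalized (−0.83) and by voom (−0.92). E2f1 was also lost when rescaled to total reads (−0.36) or with the GC and length trend removed (−0.17). Top2a was also lost with no filter (1.28) or with that trend removed (0.87). Marker levels moved here too. Pericyte and smooth muscle markers fell in 7 of 9 and summed to 494 and 426 FPKM in treated libraries, against 4110 and 3608 in control libraries. Endothelial markers rose in 7 of 10, with sums of 729 and 1030 FPKM against 334 and 271 in the control, and oligodendrocyte lineage markers in 8 of 11. Microglia and macrophage markers rose in 4 and fell in 2 of 14 (6619 and 4986 FPKM in treated cells, against 2412 and 4000 in the control), astrocyte markers rose in 3 and fell in 2 of 13, fibroblast markers rose in 1 and fell in 3 of 10, neuronal markers rose in 1 and fell in 2 of 4, and 1 of 8 neural stem cell markers fell. Their part in the result was not tested.

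The genes that rose with Aβ had a low GC content among the 41, but not every gene of low GC content rose. The GC content of the longest transcript of the 7 was 36.3% to 46.6%, with a median of 42.2% and a median gene length of 7205 bases, while the 31 genes that were not called had a median GC content of 49.3% and a median length of 4059 bases. Divided by GC content into 2 sets of 21 genes, the lower set (36.3% to 47.9%) held 7 higher and 1 lower of 20 tested, and the upper set (48.4% to 58.3%) held 0 higher and 2 lower of 21. The 1 lower was Rrm1, at 43.3% and 11012 bases. Nusap1 (41.8%), Pcna (45.3%) and Rrm2 (46.0%) were among those of the lower set not called. Across the 41 genes Pearson's r between GC content and the log2 change was −0.55 for Aβ, 0.07 for the AD model and 0.42 for the Ogt cKO, and over 14003 genes it was −0.27, −0.11 and 0.09. These are correlations across genes of the same libraries, which share base composition and library preparation, and are given as descriptions. With a smooth trend on GC content and length removed from each library, 5 genes were called for Aβ: Mki67 (1.19), Hells (0.80) and Bub1 (0.71) rose and Ccne1 (−0.85) and Rrm1 (−1.30) fell on the log2 scale. The cKO count was then 38 and the AD count 22, all higher.

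**Figure D4:**
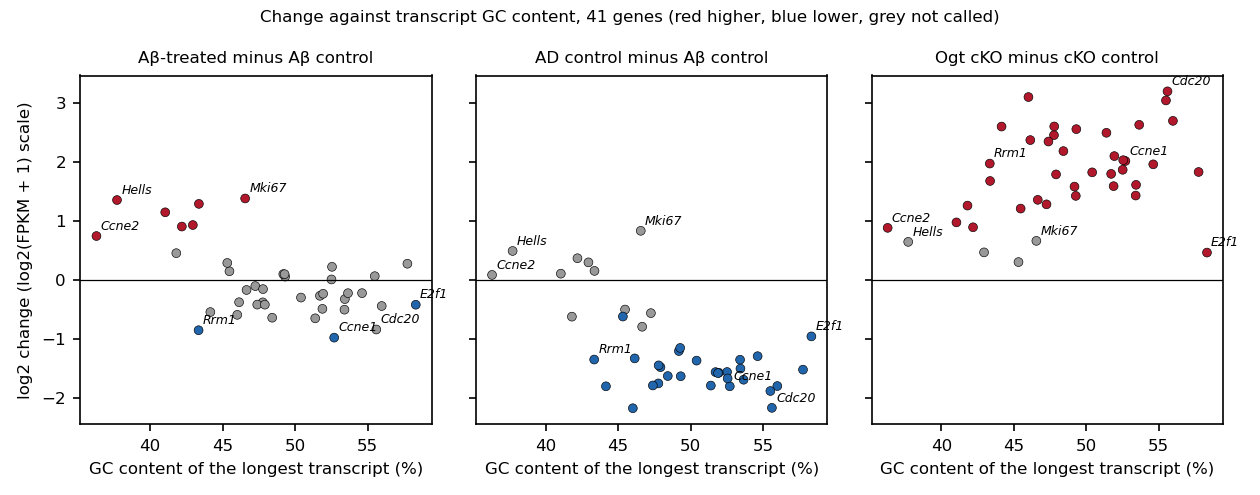
Fitted log2 change against the GC content (percent) of the longest transcript for the 41 tested genes, in 3 comparisons, with red points for higher, blue for lower and grey for not called. The 7 genes that rose with Aβ lie at the left of its panel, at 36.3% to 46.6% GC, 7 points lie above 0 in the panel of AD control minus Aβ control, and all points of the cKO panel lie above 0.

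Ratios between genes of the same library do not depend on the scaling between libraries, though a trend on GC content or length is not removed from them. The Cdc20 to Mki67 ratio of FPKM was 36.9 and 39.4 in Ogt cKO libraries, against 12.2 and 11.2 in cKO control libraries. It was 4.36 and 3.84 in the AD model, against 3.97 and 4.07 in its control, so the genes kept nearly the same proportion in all 4 libraries of that experiment. In Aβ-treated cells it was 6.69 and 6.14, against 50.2 and 49.8 in the control. The Ccne1 to Ccne2 ratio was 14.2 and 13.1 in the cKO, against 11.2 and 10.5 in its control, 2.30 and 3.17 in the AD model, against 4.16 and 3.08 in its control, and 3.37 and 3.69 in treated cells, against 17.5 and 13.6 in the Aβ control. Both ratios were higher in the Ogt cKO, its control and the Aβ control, than in the other 3 groups. The Bub1b to Bub1 and Rrm2 to Top2a ratios had the same split. For Rrm2 to Top2a it was narrow, with 2.78 in cKO control replicate 1 and 2.73 in AD replicate 2. Bub1b to Bub1 overlapped between the cKO (5.61 and 3.24) and its control (2.78 and 4.15). Cdc20 (55.6% GC, 1868 bases) is richer in GC and shorter than Mki67 (46.6%, 10061 bases), as is Ccne1 (52.7%, 2662 bases) beside Ccne2 (36.3%, 3495 bases). The part of GC content and length in these ratios was not tested. These ratios were chosen after the values were seen and are given with no test.

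The control libraries themselves differed in these genes. The AD control was lower than the Aβ control in 30 of 41 genes and higher in 0 (median −1.45; 32.2% of all genes differed and 15.5% were lower), and the cKO control was lower than the Aβ control in 36 and higher in 0 (median −1.83; 45.7% of all genes differed and 22.6% were lower). Between the AD control and the cKO control 4 genes were higher in the AD control (Mki67, Ccne2, Mcm6 and Kif11) and 0 were lower, with a median of 0.61 over the 41 (0.28 without cKO control replicate 2), in a comparison where 7.98% of all genes differed, 4.49% higher and 3.49% lower. These comparisons use the same control libraries as the 3 main ones, so they are not independent of them. Each control belongs to a different experiment. The controls also differ in age (6, 4 and 2 months) and, for the cKO control, in genotype. Experiment, age and genotype cannot be told apart.

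Rrm2 averaged 9.98 ± 2.20 FPKM in the AD control, 4.97 ± 2.72 FPKM in the cKO control and 48.1 ± 0.288 FPKM in the Aβ control (SD, n = 2 each). Cdc20 averaged 10.3 ± 5.05, 4.30 ± 3.11 and 47.4 ± 3.40 FPKM in the same order. Both were thus far higher in the Aβ control, with fitted log2 changes for AD control minus Aβ control of −2.18 ± 0.29 and −2.17 ± 0.49. Mki67 had another order, and averaged 2.58 ± 1.30 FPKM in the AD control, 0.36 ± 0.244 FPKM in the cKO control and 0.949 ± 0.0632 FPKM in the Aβ control. The change of Mki67 between AD control and Aβ control did not pass the test (0.83 ± 0.32, adjusted p = 0.0784, limma). The 7 genes with a positive change there had a GC content of 36.3% to 46.6%, and the 34 with a negative one 41.8% to 58.3%. The count of 30 was 18 without Aβ control replicate 1. The 4 genes of the AD control and cKO control comparison were 0 without AD control replicate 1 or cKO control replicate 2, 1 without cKO control replicate 1 and 7 (6 higher, 1 lower) without AD control replicate 2, and 0 with only the 4 libraries or no filter.

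The Ogt cKO and the Aβ control, both high, were set against each other after the values were seen. With limma 0 of the 41 genes were called at an adjusted p, 0 at an unadjusted p under 0.05 and 0 by voom on recovered reads, with a median change of 0.03 and a range of −0.26 to 0.49. Of all genes 0.321% were called there, 0.00714% as lower. Cdc20 averaged 43.1 ± 1.26 FPKM in the cKO and 47.4 ± 3.40 FPKM in the Aβ control, Rrm2 47.2 ± 0.831 and 48.1 ± 0.288 FPKM, and Ccne1 22.9 ± 0.653 and 22.8 ± 2.17 FPKM (SD, n = 2 each). The sums of pericyte and smooth muscle markers also lay close, at 4033 and 4082 FPKM in the cKO and 4110 and 3608 FPKM in the Aβ control. So did those of astrocyte markers, at 186 and 200 FPKM and at 202 and 208 FPKM.

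The changes were then set against each other in the same fit. The cKO change was larger than the Aβ change in 32 of the 41 genes and smaller in 0, where 52.3% of all genes differed (25.7% with a larger and 26.6% with a smaller change in the cKO). The 9 not called were Ccne2, Pcna, Hells, Bub1, Cenpe, Kif11, Nusap1, Top2a and Mki67. The cKO change was larger than the AD change in 6 genes (Ccne1, Gins2, Rrm1, Mcm6, Rrm2 and Aurka) and smaller in 0, where 13.7% of all genes had a larger change in the cKO, a share near that of the 41. The AD change was larger than the Aβ change in 6 (Ccne1, Rrm2, Gins2, E2f1, Birc5 and Mcm7) and smaller in 0, while 1.52% of all genes had a larger and 4.62% a smaller change in the AD model. Ccne1 was among the called genes of all 3 pairs, with differences of 1.09 ± 0.27 for cKO minus AD, 2.99 ± 0.27 for cKO minus Aβ and 1.90 ± 0.27 for AD minus Aβ. The count for cKO minus AD was 0 without any 1 of 4 libraries (cKO replicate 1 or 2, cKO control replicate 2, AD control replicate 1), 1 without AD replicate 2, with a smaller change in the cKO, 22 without AD replicate 1 (21 larger, 1 smaller) and 11 without AD control replicate 2 (10 larger, 1 smaller). That for AD minus Aβ was 18 without AD replicate 2 or AD control replicate 1, 3 without AD control replicate 2 or treated replicate 2, and 1 without treated replicate 1 or Aβ control replicate 1.

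Other genes of the same processes, in lists that leave out the 42, were counted too. Of 50 other replication genes 36 rose in the Ogt cKO and 0 fell, 33 rose in the AD model and 0 fell, and 7 rose and 5 fell with Aβ. Of 45 other mitosis genes tested the counts were 40 and 0 in the cKO, 28 and 0 in the AD model, and 9 and 1 with Aβ. Over all genes tested the shares were 22.6% higher and 19.8% lower in the cKO, and 9.8% and 7.27% in the AD model. With Aβ they were 20.8% and 15.1%, so the Aβ counts of both lists are near or below that background. Medians for the replication list were 0.80, 0.68 and −0.12 on the log2 scale and for the mitosis list 1.38, 0.94 and −0.05.

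Rpa1, which coats single-stranded DNA, stood out for moving in opposite directions. It had 82.7 and 70.2 FPKM in the cKO, against 19.3 and 18.1 in its control (1.97 ± 0.16, adjusted p = 0.00035, limma), and 24.0 and 26.1 FPKM in Aβ-treated cells, against 84.5 and 91.4 in the Aβ control (−1.77 ± 0.16, adjusted p = 0.000106, limma). In the AD model it had 23.2 and 19.1 FPKM against 25.7 and 19.5 in its control. Of the mitosis list, Cks2, a subunit of cyclin-dependent kinases, averaged 52.1 ± 4.32 FPKM in the cKO and 9.31 ± 3.75 FPKM in its control. Mastl, the kinase that keeps mitotic phosphatase off, was among the top genes by p in both the AD model (2.83 ± 0.318 and 0.802 ± 0.0509 FPKM in its control) and Aβ (1.98 ± 0.2 and 0.459 ± 0.0269 FPKM in the control; SD, n = 2 each).

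Regulators upstream were counted in the same way. Of 14 G1 cyclins, kinases and growth transcription factors 8 rose and 0 fell in the cKO. In the AD model 0 rose and 1 fell, below or near the 9.8% higher and 7.27% lower of all genes. With Aβ 2 rose and 1 fell, where the share is below that of all genes. Myc, a transcription factor that promotes growth, had 28.8 and 29.2 FPKM in the cKO, against 4.34 and 6.74 in its control (2.22 ± 0.43, adjusted p = 0.00569, limma). Ccnd3, cyclin D3, averaged 14.0 ± 0.922 FPKM in the AD model and 19.7 ± 2.16 FPKM in its control, and 18.2 ± 2.06 FPKM in treated cells and 35.4 ± 0.422 FPKM in the Aβ control (SD, n = 2 each), a fall in both. Mycn had 6.67 and 10.2 FPKM in treated libraries, against 1.51 and 1.21 in control libraries (1.98 ± 0.35, adjusted p = 0.00295, limma). Of 20 CDK inhibitors, pocket proteins and p53 pathway genes 8 rose and 4 fell in the cKO, 1 rose in the AD model, and 4 rose and 2 fell with Aβ. Set beside 20.8% higher and 15.1% lower of all genes with Aβ, and 19.8% lower in the cKO, the Aβ counts and the count lower in the cKO are near or below the background. The count higher in the AD model is also below its background of 9.8%. This list mixes brakes and their antagonists. In the cKO the p53 gene Trp53 rose (62.0 ± 0.661 and 19.6 ± 1.48 FPKM in the control), as did its antagonist Mdm2 and its target Cdkn1a (257 ± 10.3 and 105 ± 18.2 FPKM in the control), while the pocket proteins Rb1 (2.27 ± 0.257 and 7.96 ± 0.348 FPKM in the control) and Rbl2 fell. Rb1 rose with Aβ, with 7.13 and 5.85 FPKM in treated libraries, against 1.72 and 2.35 in control libraries (1.30 ± 0.29, adjusted p = 0.00795, limma). The stress gene Gadd45a, a p53 target, had 27.2 and 24.4 FPKM in treated cells, against 6.84 and 7.87 in the control (1.68 ± 0.35, adjusted p = 0.00631, limma). In the cKO Gadd45a was lower, at 15.4 and 15.5 FPKM, against 25.5 and 35.1 in its control. Cdkn1a did not rise with Aβ, at 233 and 242 FPKM in treated cells, against 270 and 242 in the control. Gadd45a and Cdkn1a thus did not move together in either comparison. Cdkn2c, an inhibitor of cyclin D kinases, fell with Aβ (7.74 ± 1.31 and 17.3 ± 0.853 FPKM in the control).

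**Figure D5:**
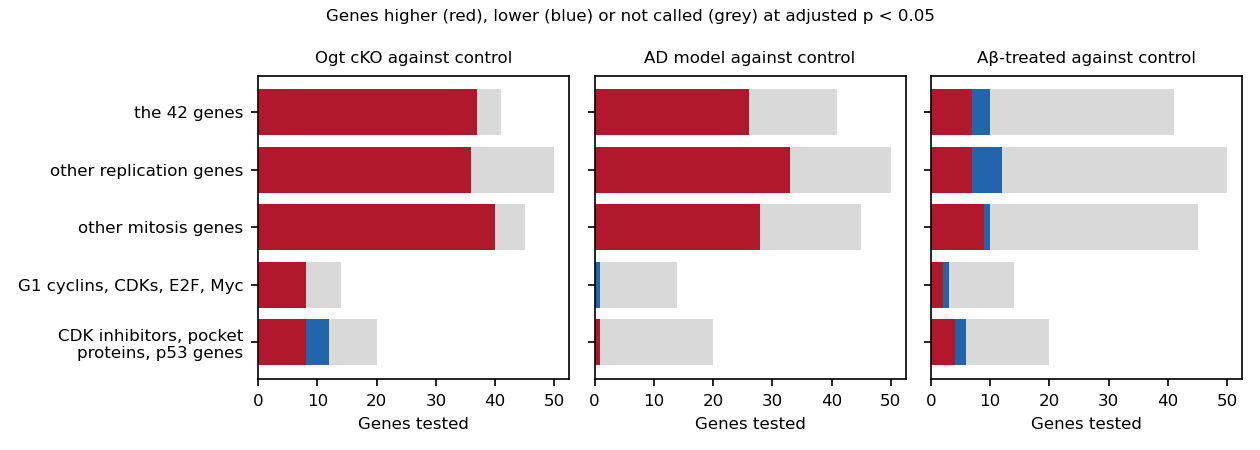
Number of genes tested (x axis) in each of 5 lists that rose (red), fell (blue) or were not called (grey) at an adjusted p under 0.05, in the 3 comparisons. Of the 42 genes, 37 rose in the Ogt cKO, 26 in the AD model and 7 with Aβ, where 3 fell, while the inhibitor list has calls in both directions in the cKO and with Aβ.

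Among the genes outside the 42 whose pattern over the 12 libraries was most like the median of the group were Tacc3, Mybl2, Cdca3, Kif22, Trip13, Cdca5 and Iqgap3. Likeness was the root-mean-square distance of centred log2(FPKM + 1) values from that median, which was 0.0946 for Tacc3 and 0.151 for Iqgap3. Tacc3, a spindle protein, had 14.8 and 15.5 FPKM in the cKO, against 4.47 and 2.43 in its control, 14.8 and 9.19 FPKM in the AD model, against 5.86 and 4.06 in its control, and 11.6 and 13.0 FPKM in Aβ-treated cells, against 16.3 and 14.4 in the Aβ control. Mybl2, which encodes B-MYB, had 4.21 and 3.74 FPKM in the cKO, against 0.619 and 0.387 in its control.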

How the data were processed

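RNA-seq of 12 libraries was analysed, 2 in each of 6 groups taken from the sample descriptions. Per the labels' protocols, TRIzol total RNA was made into libraries by standard Illumina methods, and per the submitters' processing notes the build was mm10. The aligner, counting tool, annotation and handling of reads shared between genes are, in the sources used here, not given. Deposited were the authors' FPKM values for 54532 genes, with gene lengths. Multiplied by gene length, FPKM values fell on whole steps in every library (100% within 0.1 read), which returned read counts of 16418852 to 18705309 reads per library.

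The filter of 1 FPKM in 2 or more libraries kept 14014 genes, fitted on the log2(FPKM + 1) scale by limma 3.58.1 under R 4.3.3 (intensity trend, 1 mean per group, two-sided, Benjamini-Hochberg adjustment over these genes, threshold 0.05). The 6 groups shared 1 spread (6 residual and 2.92 prior degrees of freedom). The script was tested on simulated data. GC content, known for 99.9% of tested genes, came from the longest transcript of an outside mm10 annotation, which need not be the one behind the FPKM values. Promoters were read with Python 3.11.15 and figures drawn with matplotlib 3.10.9.

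The 42 genes and all lists were chosen with earlier results of these data known. Values per library are given for the top 2 genes by level of each role, for the genes of largest and smallest change, and for further genes picked after their values were seen. Outside the 42, up to 4 genes per list and comparison with the smallest p were eligible, some of which are not reported here, and Rb1 and Cdkn1a were added after their values were seen. Alternatives were pseudocounts of 0.5 and 0.1, other filters and scalings, voom on recovered reads, a replicate block, only the libraries of a comparison, and leaving out each library. Removing the GC and length trend, comparing the Ogt cKO with the Aβ control and crossing the Aβ replicate numbers were added after seeing the data.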

Additional observations from a re-analysis of the deposited data

Results flagged for a closer look

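Differences between the changes of 2 experiments, tested as contrasts in limma and adjusted over all genes, were past the threshold for some of the 41 genes. For cKO minus AD there were 6, led by p by Ccne1 (1.09 on the log2 scale), Gins2 (0.78), Rrm1 (1.51) and Mcm6 (0.93), where 13.7% of all genes had a larger change in the cKO, and the count was 0 without cKO replicate 1 or 2, cKO control replicate 2 or AD control replicate 1. For cKO minus Aβ there were 32, led by Ccne1 (2.99), Gins2 (1.93), Rrm2 (3.69) and Rrm1 (2.82), where 25.7% of all genes had a larger change in the cKO. For AD minus Aβ there were 6, led by Ccne1 (1.90), Rrm2 (2.39), Gins2 (1.16) and E2f1 (0.89), where 1.52% of all genes had a larger change in the AD model, and leaving out a library gave 1 to 18. The 3 experiments differ in the age of the mice as well as in genotype and treatment, and these cannot be told apart.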

How the results depend on the processing

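With 2 libraries a group, in a fit with few degrees of freedom, a gene not called may still have changed, and genes under about 1 FPKM rest on few reads. Of the alternatives for counts of called genes, 118 stayed within 1.5 times the count reported and 45 did not. The cKO count against its control stayed within that range under all alternatives run, with 0 lower. For the 3 control and cKO counts that moved least, leaving out a library gave 30 to 37 for cKO and 29 to 36 for cKO control against Aβ control, and 31 to 33 for cKO minus Aβ. The other ranges were 11 to 37 for AD, 3 to 6 for Aβ, 0 to 7 for AD control against cKO control, 18 to 31 for AD control against Aβ control, 0 to 22 for cKO minus AD and 1 to 18 for AD minus Aβ. With no filter the counts were 13 for AD, 6 for Aβ, 0 for AD control against cKO control and 2 for cKO minus AD. A filter at 5 FPKM gave 4 for Aβ and 1 for AD control against cKO control. With only the libraries of a comparison they were 0 for AD, 17 for Aβ, 0 for AD control against cKO control, 0 for cKO minus AD and 2 for AD minus Aβ. Quantile normalization gave 2 for AD control against cKO control, rescaling to total reads gave 3 for cKO minus AD, and voom gave 13 for AD minus Aβ. With the GC and length trend removed there were 5 for Aβ, 2 for AD control against cKO control and 3 for AD minus Aβ. The median of cKO against Aβ control changed sign, to −0.0163 with quantile normalization and −0.0265 without Aβ control replicate 2, the lowest of a leave-one-out range up to 0.0640. For cKO against Aβ control the count was 0 under all alternatives run. The causes were not tested.

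With the replicate number as a block the counts were 40 for AD, 16 for AD control against cKO control, 21 for cKO minus AD and 26 for AD minus Aβ, and the other counts stayed within 1.5 times. Plk1 (1.24), Rrm1 (0.46), Cdc20 (1.07), Ube2c (1.28), Tpx2 (1.26) and Mki67 (0.87) were then called in AD, and Hells (0.64) and Mki67 (0.66) in the cKO. Same-numbered libraries deviated with a correlation of 0.55 for AD, 0.03 for cKO and −0.17 for Aβ over 14014 genes, and no label says that the numbers pair libraries. With the Aβ numbers crossed, 12 genes were called, against 11 with the numbers as given.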
